A study of Rattus norvegicus with 18 samples.

Results

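The genes described here encode proteins of the mitochondrial ribosome and aminoacyl-tRNA synthetases that work in mitochondria. They were selected on gene symbol: a probe set belonged to the group when its single annotated symbol began with Mrpl or Mrps and a number, or was that of a synthetase ending in ars2. The group was proposed with values of these arrays already known, so the differences below are descriptions and do not count as independent evidence for one another. The rule gave 86 genes with 123 probe sets, of 13810 named genes and 31256 probe sets on both array types. Of these 86 genes, 46 have Mrpl symbols (called large subunit here), 27 have Mrps symbols (called small subunit) and 13 encode synthetases. These classes follow the symbol alone, and the place of each protein in the ribosome was not checked. Array A (RAE230A) carried 88 of the probe sets, for 76 genes, and array B (RAE230B) carried 35, for 29 genes. Measurements on both array types existed for 19 genes. RefSeq lists 95 protein-coding rat symbols that meet the rule, and Lars2 was among those with no probe set assigned here.

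The tissue was thoracic aorta of male Fisher 344 rats aged 5 weeks, cut into 2 mm rings and kept in serum-free medium, where such rings sprout vessel-like outgrowths. On day 13 one set of rings received 10 ng/ml of recombinant human VEGF. Another set received 100 ng/ml of recombinant human angiopoietin-1 (Ang1) together with 5 ug/ml of an antibody against its poly-histidine tag, and the remaining rings stayed in medium alone. The untreated rings did not receive the antibody, so the Ang1 comparison is that of Ang1 with antibody against neither. The sample labels give 20 h of treatment and the design text gives 18 h. The rings of each of 3 animals were split over the 3 conditions, and 4 to 6 rings of a condition were pooled into each RNA, giving 3 RNAs per condition. Each of the 9 RNAs was hybridised to both array types, 18 arrays in all. The labels do not say that a replicate number marks the same animal in each group. A difference between such tissue RNAs cannot tell fewer cells of one type from less RNA per cell.

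Mitochondrial ribosomes make the small set of inner membrane proteins that the mitochondrial genome still encodes, all of them subunits of the respiratory chain and the ATP synthase. Every protein of this ribosome is encoded in the nucleus, made in the cytosol and imported, as are the synthetases that charge the mitochondrial tRNAs with their amino acids. The low-numbered ribosomal proteins have counterparts in bacterial ribosomes, whereas most of the higher-numbered ones are additions of the mitochondrial ribosome.

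Levels are given as log2(signal + 16) after quantile normalisation within an array type, so a difference of 1 is a doubling of that quantity. The labelling protocol of untreated replicate 1 is worded differently from that of the other RNAs. Values of 2 other RNAs stood apart. The 3' probe set of Gapdh, a glycolytic enzyme used as a labelling control, had, on array A, a deposited signal of 64.4 for untreated replicate 2 and 446.9 for Ang1 replicate 2, whereas the 7 remaining RNAs had 2217.8 to 3246.8. The median correlation of Ang1 replicate 2 with the other arrays was 0.82 for type A and 0.66 for type B. Its level was the lowest of the 9 RNAs in 25 of 88 probe sets of the group on array A and in 13 of 35 on array B, compared with 21.9% and 24.4% of all probe sets. It was also the highest in 25 of 88 and in 7 of 35, compared with 30.6% and 32.4%, so this RNA was extreme in both directions. On array A the ratio of 3' to 5' actin signal was 4.337, 1.857 and 7.701 untreated and 8.791, 9.123 and 12.45 after VEGF. After Ang1 it was 8.293, 6.175 and 8.289. On array B it was 3.023, 3.04 and 5.077 untreated, 5.24, 5.476 and 11.93 after VEGF, and 7.382, 1.252 and 6.747 after Ang1. All 3 VEGF RNAs thus lay above all 3 untreated ones on both array types, while the Gapdh ratio overlapped between these groups. The part of this ratio in the results below was not tested. Ang1 replicate 3 was deposited on array B with a trimmed mean of 94.79, while the other arrays had about 250.1. Of the tissue marker probe sets of array A, 6 of 6 endothelial, 6 of 7 smooth muscle, 8 of 8 fibroblast and 4 of 6 macrophage ones passed the filter on low values. The endothelial median was 0.12 higher after Ang1 on array A, with 3 of 6 probe sets above 0, but on array B it was -0.74 with 1 of 3 above 0. After VEGF it was 0.35 and -0.26. On array A the macrophage median was 0.30 after Ang1 and that of cardiac and skeletal muscle markers 0.29, the latter with a median deviation of 0.99 in Ang1 replicate 2, while smooth muscle and fibroblast medians were -0.07 and -0.03. After VEGF the smooth muscle median of array A was -0.38, with 3 of 7 probe sets above 0. Its median deviation in single RNAs ran from -0.78 in untreated replicate 2 to 1.00 in untreated replicate 3. The macrophage marker of array B, Adgre1, was 1.04 higher after VEGF, with no overlap, and 0.88 higher after Ang1, with overlap. The macrophage median of array A was 0.15 after VEGF. The part of cell composition in the results below was not tested.

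Most ribosomal protein genes were expressed well above the array's middle. The median probe set of the large subunit had a level of 8.24 on array A and stood at percentile 73.8 of all probe sets of that array, and the small subunit median was 8.22, at percentile 73.5. The synthetases were dimmer on array A, with a median of 6.35 over 6 probe sets, at percentile 36.5. On array B, 13 synthetase probe sets had a median of 7.60. The filter on low values, set at the 40th percentile of mean level, was passed by 76 of 88 probe sets on array A (69 genes) and by 29 of 35 on array B (27 genes). Only 2 of the 6 synthetase probe sets on array A passed it, those of Fars2 and one for Tars2. A probe set's brightness also reflects its sequence, so these levels order probe sets and not transcript numbers.

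**Figure D1:**
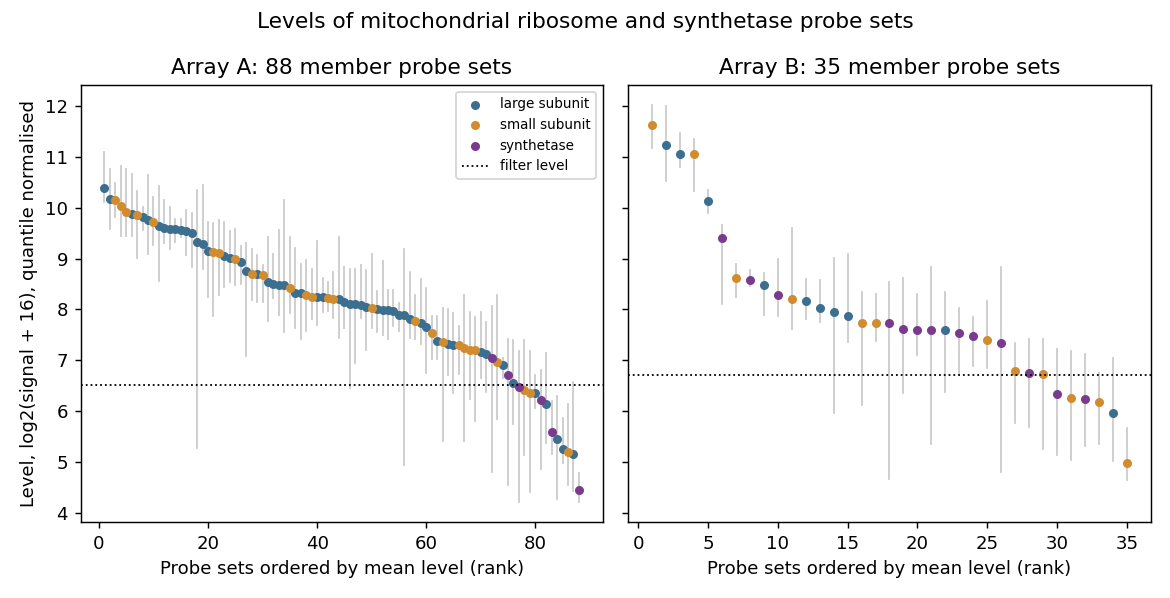
Mean level over 9 RNAs (points, log2 of signal + 16) of each probe set of the group, ordered from brightest to dimmest on arrays A and B, with the lowest and highest RNA as a grey line and the filter level dotted. Points span 4.46 to 10.39 (array A) and 4.99 to 11.62 (array B), and many grey lines reach far down because 1 RNA was low.

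The brightest probe sets on array A belonged to Mrpl41 (mean level 10.39), Mrpl33 (10.18), Mrps6 (10.15), Mrps26 (10.04) and Mrps17 (9.92). On array B they belonged to Mrps26 (11.62), Mrpl43 (11.23), Mrpl53 (11.06), Mrps14 (11.06) and Mrpl21 (10.13). Identical probe sets for Mrps26, Mrpl43, Mrpl53 and Mrpl21 are printed on both array types, which allowed the same RNA, by its label, to be read on both. Over the 100 probe sets on both types, controls aside, 8 of 9 RNAs on array A correlated best with their own array B partner. The Ang1 difference of Mrpl53 was 0.15 on array A and 0.11 on array B, and that of Mrpl43 was -0.32 and -0.24. For Mrps26 the values were -0.12 and -0.38, and for Mrpl21 -0.26 and 0.01. The readings of one probe set in the same RNAs thus lay up to about the size of the group's median difference apart.

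No probe set of the group, and none elsewhere on either array type, passed an adjusted p of 0.05 in any comparison (limma with Benjamini-Hochberg adjustment over 9520 probe sets of array A and 9166 of array B, share called 0%). In the comparison of Ang1 with untreated rings the smallest adjusted p in the group was 0.953 on array A and 0.327 on array B. With VEGF these were 1.0 and 0.999, and in the comparison of VEGF with Ang1 they were 0.972 and 0.300. The typical standard error of a difference was 0.34 for the group's probe sets on array A and 0.36 on array B. With 3 RNAs a group, an exact permutation test of 1 value cannot go below 0.1. In simulated data of the same design, 200 probe sets were given known changes, and those changed by 1 on the log2 scale were not recovered at that adjusted threshold.

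After Ang1 the group as a whole lay below untreated rings on both array types. The median difference was -0.23 over 88 probe sets of array A, where 61 were below 0 and 27 above, while the median of all 15866 probe sets was 0.01. On array B the median was -0.25 over 35 probe sets, 23 below 0 and 12 above, and the median of all 15276 was 0.04. The array B median depended on single RNAs: it was -0.087 when untreated replicate 1 was left out, -0.10 when Ang1 replicate 2 was, and -0.14 when Ang1 replicate 3 was, with 22 or 23 probe sets below 0 in each. On array A it was -0.15 without untreated replicate 2. In single RNAs, the median deviation of the group from its 9-array mean on array A was 0.09, 0.16 and 0.13 in the untreated RNAs. It was -0.02, -0.08 and -0.14 after Ang1, so that these 2 groups did not overlap. On array B the untreated RNAs had 0.19, 0.10 and 0.13 and the Ang1 RNAs 0.04, -0.21 and -0.08, again with no overlap. The arrays are adjusted to one distribution, so a shift of the group is relative to the other genes of the array.

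Without untreated replicate 2 and Ang1 replicate 2 the median Ang1 difference was -0.14 on array A and -0.19 on array B. Of single probe sets with all RNAs, 10 of 88 on array A had all 3 Ang1 levels below all 3 untreated levels and 4 had them above, compared with 5.17% lower and 4.46% higher among all probe sets. On array B these counts were 9 lower and 3 higher of 35, against 7.05% and 8.05%. With those 2 RNAs left out, leaving 2 arrays a group, 34 of 88 on array A were lower and 7 higher, against 17.6% and 18.1% of all probe sets. On array B 13 of 35 were lower and 6 higher, against 16.7% and 20.9%. At an unadjusted p of 0.05, 3 probe sets of the group on array A were lower and 0 higher, beside 3.17% of all tested in either direction. On array B 4 were lower and 1 higher, beside 10.5% of all tested.

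**Figure D2:**
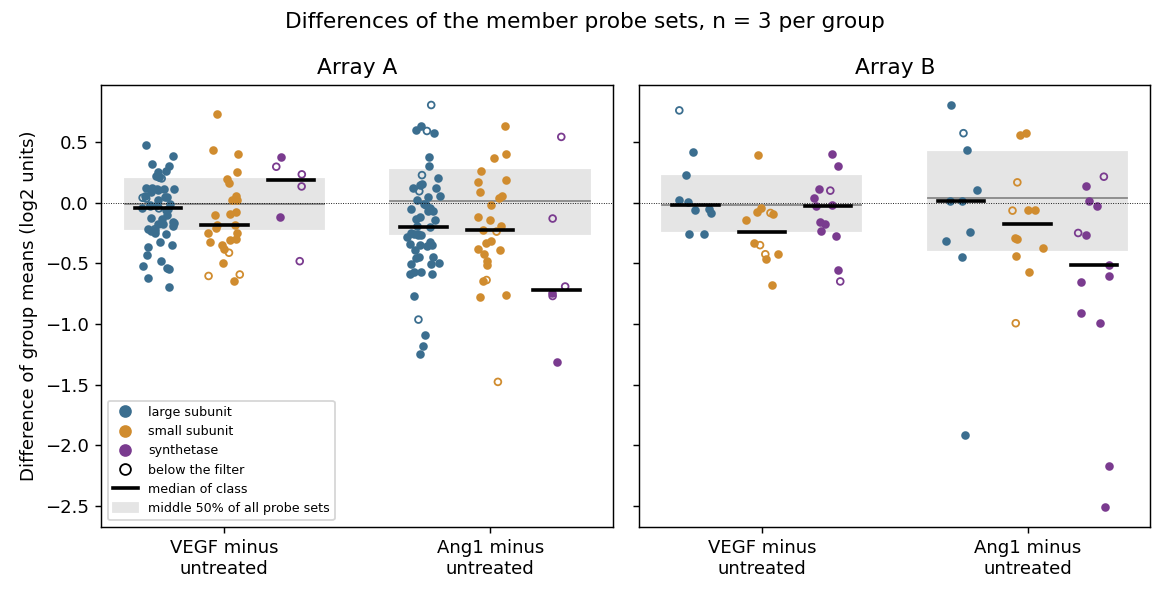
Difference of group means in log2 units (VEGF or Ang1 minus untreated, 3 RNAs a group) for every probe set of the group by class, open where it was below the filter; black bars are class medians and the grey band holds the middle 50% of all probe sets of the array type. The synthetase medians after Ang1 were -0.72 on array A and -0.52 on array B with all RNAs; without Ang1 replicate 2 the array A median was -0.0061, above those of both ribosomal subunits.

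With all RNAs the synthetases had the lowest medians of the 3 classes after Ang1, an order that was lost on array A without Ang1 replicate 2. Their median difference was -0.72 on array A, with 5 of 6 probe sets below 0, and -0.52 on array B, with 10 of 13 below 0. Ang1 replicate 2 weighed on this class more than on the ribosomal proteins. Its synthetase median deviated by -1.76 on array A and by -0.83 on array B, whereas the other Ang1 RNAs lay at 0.04 and 0.14 on array A and at -0.02 and -0.21 on array B. It was the lowest of 9 RNAs for 5 of 6 synthetase probe sets on array A and for 7 of 13 on array B. Without Ang1 replicate 2 the synthetase median of array A was -0.0061, with 3 of 6 below 0, against -0.21 for the large and -0.19 for the small subunit. Without both RNAs that stood apart it was -0.17, against -0.12 and -0.18. On array B it stayed the lowest of the classes in both settings, at -0.42 and -0.26.

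**Figure D3:**
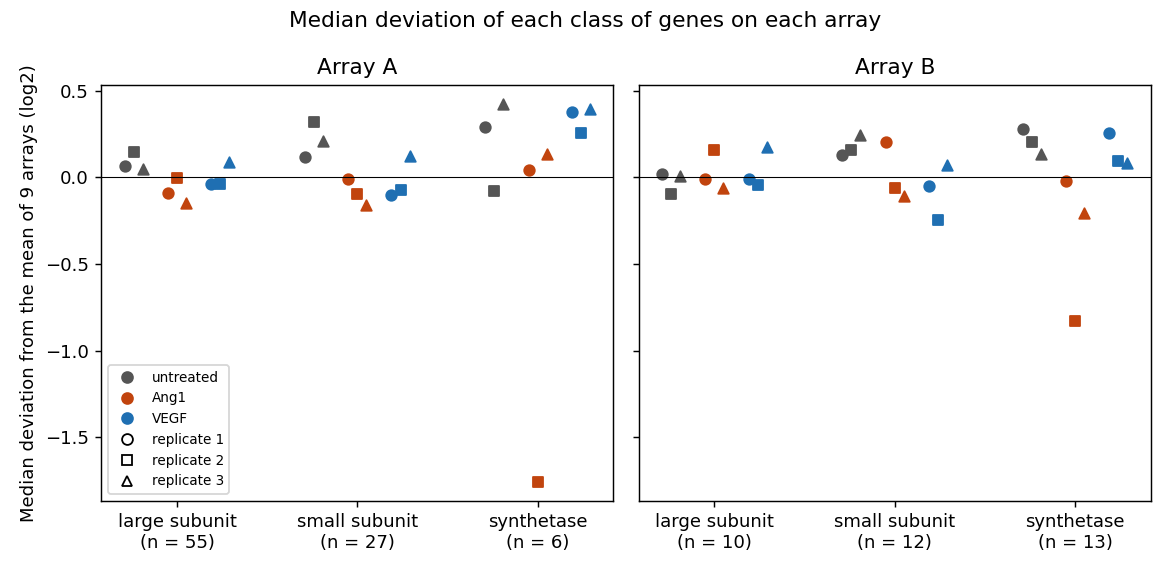
Median deviation (log2 units) of the probe sets of each class from their mean over 9 arrays, 1 point per RNA, coloured by treatment and shaped by replicate. The synthetases of Ang1 replicate 2 stand at -1.76 on array A and -0.83 on array B, far below the other points, while the ribosomal subunits of that RNA do not.

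Hars2 and Nars2 had the lowest synthetase values after Ang1, both on array B. Since the filter acts on the mean over all RNAs, both passed it through the other groups, and their Ang1 means of 6.12 and 5.86 lay below the filter level of 6.71, where readings are dim and a fold is imprecise. The same holds on array A for Fars2, Tars2 1373760_at and Mrpl49 1372619_at, whose Ang1 means of 5.87, 6.42 and 6.04 were below the filter level of 6.52. Hars2, which charges the histidine tRNA of mitochondria, was read by probe set 1378050_at at 7.88, 8.84 and 8.14 in untreated rings and at 8.23, 8.70 and 8.28 after VEGF. After Ang1 it was at 6.66, 5.35 and 6.34. All 3 Ang1 levels lay below the 6 others, with a difference from untreated of -2.17 ± 0.40 (SE, n = 3 per group), a 4.49-fold lower value at an unadjusted p of 0.00025 and an adjusted p of 0.327 (limma). Without the 2 RNAs that stood apart the difference was -1.49. The other Hars2 probe set, 1373721_at on array A, failed the filter and read 6.68, 6.49 and 6.67 untreated, 6.26, 4.87 and 6.64 after Ang1, and 6.81, 6.61 and 4.98 after VEGF. There the low values were single RNAs of both treated groups, and the groups overlapped.

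Nars2, the asparagine enzyme, showed how far 2 probe sets of one gene can part. Probe set 1381448_at stood at 8.33, 8.71 and 8.05 untreated, at 5.00, 4.81 and 7.77 after Ang1, and at 7.79, 8.84 and 6.81 after VEGF. Its Ang1 difference was -2.50 ± 0.75 (SE), adjusted p 0.466 by limma, and 2 of the 3 Ang1 RNAs made it. Probe set 1392533_at, on the same arrays, stayed between 8.46 and 8.77 in all 9 RNAs, with a difference of 0.01. A low reading of Nars2 after Ang1 therefore came from 1 of its 2 probe sets. Wars2, the tryptophan enzyme, likewise had -0.65 with 1391016_at, where all 3 Ang1 levels were below the untreated ones, and -0.03 with 1393760_at.

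The remaining synthetases varied in how many RNAs carried the difference. Yars2, for tyrosine, was lower in all 3 Ang1 RNAs, at 7.08, 6.71 and 7.24 against 7.73, 8.04 and 8.0 untreated, a difference of -0.91 ± 0.31 (SE). Fars2, for phenylalanine, was at 6.30, 4.56 and 6.77 after Ang1 and at 7.42, 6.90 and 7.25 untreated on array A, a difference of -1.32 ± 0.49 (SE). Without the 2 RNAs that stood apart these differences were -0.71 and -0.84, so that Fars2 moved by over 1.5 times. Rars2, for arginine and the brightest of the class, was at 9.67, 9.57 and 9.59 untreated and at 9.44, 8.11 and 9.46 after Ang1, also with no overlap. Iars2, for isoleucine, was at 8.16, 4.67 and 8.55 after Ang1 against 8.29, 7.94 and 8.14 untreated. Its difference of -0.99 rested on 1 RNA and became 0.15 without the RNAs that stood apart. Ang1 replicate 2 was also the one low RNA for Tars2, at 4.81 with 1373760_at, for Cars2 on array A, at 4.22, and for Sars2, at 6.37. The Ang1 difference of Tars2 1373760_at was -0.75, while 1375753_at, which failed the filter, gave 0.54. For Cars2 it was -0.77 on array A, in a probe set that failed the filter, and -0.27 on array B, where it passed. Ang1 differences of Vars2 (-0.13), Aars2 (0.21) and the brighter Ears2 probe set (0.14) were small beside their spread.

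**Figure D4:**
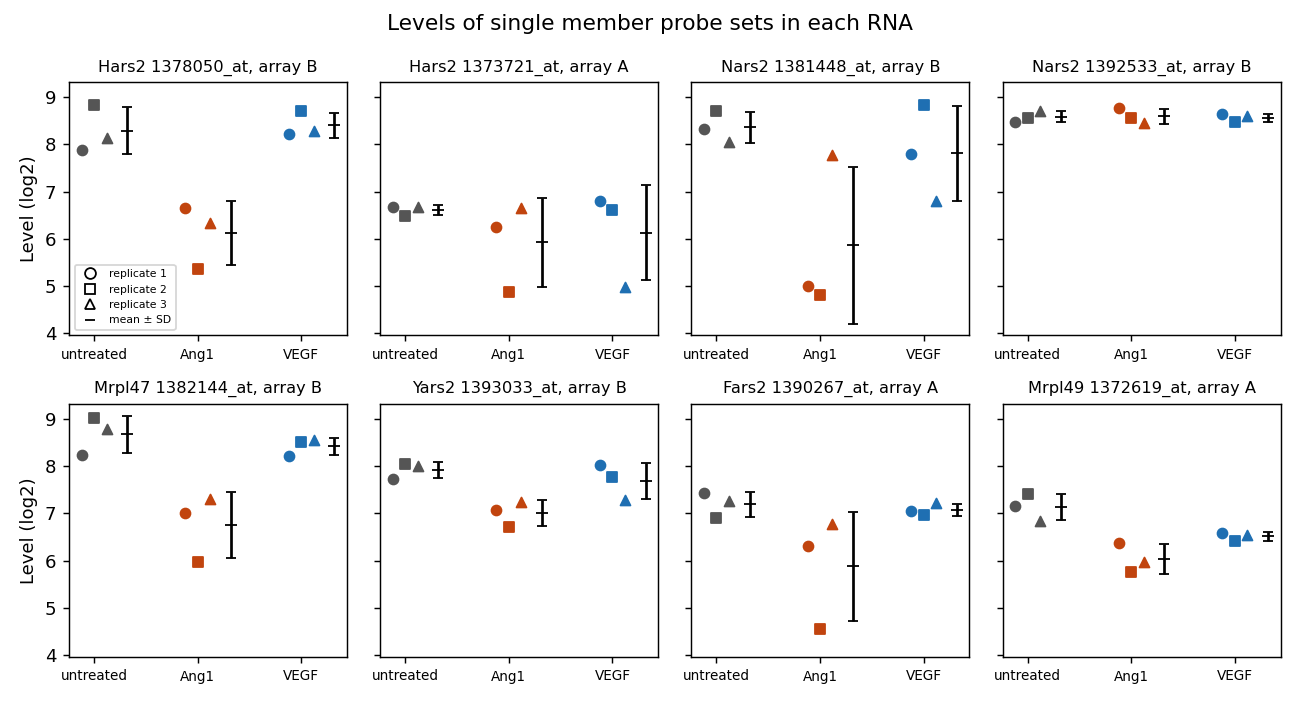
Levels (log2) of 8 probe sets in each RNA by treatment, with symbols for replicates and the mean ± SD of 3 RNAs beside them. Hars2 1378050_at, Mrpl47 and Yars2 have all 3 Ang1 points below the untreated ones, while Nars2 1392533_at stays between 8.46 and 8.77.

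In the large subunit the median Ang1 difference was -0.20 on array A, where 38 of 55 probe sets were below 0, and 0.01 on array B, where 4 of 10 were. Mrpl47, a protein near the tunnel exit of the ribosome, stood out on array B. It was at 8.24, 9.01 and 8.78 in untreated rings, at 7.01, 5.97 and 7.30 after Ang1 and at 8.21, 8.51 and 8.55 after VEGF. The Ang1 levels lay below the 6 others, with a difference of -1.91 ± 0.38 (SE), 3.77-fold lower, at an unadjusted p of 0.00047 and an adjusted p of 0.408 (limma). It was -1.38 without the 2 RNAs that stood apart. Mrpl47 had no probe set on array A for a second reading.

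Mrpl49 was close to the filter on array A, with a mean level of 6.56, and its VEGF mean of 6.51 as well as its Ang1 mean lay below the filter level. Its probe set 1372619_at was at 7.16, 7.40 and 6.84 untreated, at 6.38, 5.76 and 5.98 after Ang1 and at 6.59, 6.41 and 6.53 after VEGF. Both treated groups lay below the untreated one, by -1.09 ± 0.28 (SE) after Ang1 and by -0.62 after VEGF, with an adjusted p of 0.953 after Ang1 in limma, though a probe set that passed through the untreated group alone had to differ. The brighter probe set 1373241_at gave -0.34 and -0.16. Mrpl40 had opposite signs: 1388517_at was -0.77 after Ang1, with overlapping groups, and 1374931_at was 0.63, at 8.10, 8.74 and 7.74 against 7.65, 7.44 and 7.60, with no overlap. For Mrpl3 (-1.25) and Mrpl27 (-1.18) the lowest RNA was Ang1 replicate 2, at 5.27 and 4.94, and the groups overlapped.

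Some large subunit genes were higher after Ang1. Mrpl15 on array B was at 7.36, 7.80 and 7.44 untreated and at 7.94, 9.08 and 7.99 after Ang1, a difference of 0.80 with no overlap. Its probe set on array A gave 0.21, with overlapping groups. Mrpl10 had 0.60 on array A, at 8.51, 9.43 and 8.50 against 7.78, 8.49 and 8.38, and 0.57 in a dim probe set on array B. Mrpl12, which also binds the mitochondrial RNA polymerase, had 0.58 on array A, where Ang1 replicate 2 at 9.57 was far above the others, and 0.01 on array B. Mrpl14 was 0.43 higher on array B, at 8.18, 8.59 and 8.21 against 7.84, 7.88 and 7.96, but its dim probe set on array A gave the opposite sign, -0.96.

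Small subunit genes had a median Ang1 difference of -0.23 on array A, with 18 of 27 probe sets below 0, and of -0.18 on array B, with 9 of 12. Mrps15 had the lowest value on array A, -1.48, in a probe set that did not pass the filter: it was at 7.03, 6.84 and 7.11 untreated and at 5.94, 4.41 and 6.20 after Ang1. On array B, where it passed, Mrps15 gave -0.06. Mrps6, one of the brightest of the group, was at 10.31, 10.44 and 10.37 untreated and at 10.02, 9.84 and 9.81 after Ang1, a difference of -0.48 with no overlap. Mrps35 (-0.78) drew on Ang1 replicate 2, at 5.80. Mrps16 (0.63) and both probe sets of Mrps2 past the filter (0.40 on array A and 0.56 on array B) were above untreated, again with the highest level in Ang1 replicate 2. Mrps22 was 0.58 higher on array B, where all 3 Ang1 levels (7.72, 8.16 and 7.53) lay above the untreated ones (7.30, 7.29 and 7.08), and 0.19 higher on array A.

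After VEGF the differences were smaller. The median of the group was -0.07 on array A, with 52 of 88 probe sets below 0, and -0.08 on array B, with 24 of 35, while the medians of all probe sets were -0.01 and -0.02. These small medians moved with single RNAs, on array A to -0.12 without VEGF replicate 3 and to -0.023 without VEGF replicate 2, and on array B to -0.045 without untreated replicate 2. On array A, 7 probe sets had all 3 VEGF levels below the untreated ones and 1 had them above, against 4.85% and 3.86% of all probe sets. On array B there were 0 of either kind, against 4.54% and 3.08%. At an unadjusted p of 0.05 only Mrpl33 differed on array A, beside 1.65% of all tested (3.09% with replicate number as a block), and 0 probe sets of the group on array B, beside 0.72%. VEGF replicate 3 lay apart from the other VEGF RNAs in the group's median deviation on array A, at 0.12 against -0.06 and -0.04.

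Mrpl33, a small protein of the large subunit, was at 10.26, 10.76 and 10.66 untreated, at 9.66, 9.71 and 10.22 after VEGF and at 9.59, 10.48 and 10.24 after Ang1. Its VEGF levels lay below all untreated ones, with a difference of -0.69 ± 0.31 (SE), 1.62-fold lower, at an unadjusted p of 0.0475 and an adjusted p of 1.0 in limma. Mrpl1 was lower after both factors, by -0.55 with VEGF (8.24, 8.47 and 8.22 against 8.69, 9.09 and 8.78) and by -0.49 with Ang1 (8.54, 8.23 and 8.30), without overlap in either. Both of these comparisons use the same 3 untreated RNAs. The small subunit median after VEGF was -0.18 on array A and -0.24 on array B, against -0.05 and -0.02 for the large subunit, a difference that was not tested. Without VEGF replicate 1 the array A medians were -0.062 and -0.021. Of the 13 small subunit probe sets on array A with numbers above 21, most of them additions of the mitochondrial ribosome, 12 were below 0 after VEGF (median -0.30), while those with lower numbers had a median of 0.02. On array B this order did not recur: the 5 higher-numbered ones had -0.14 and the 7 lower-numbered ones -0.35. On array A the median deviations of the higher-numbered ones were 0.11, 0.43 and 0.07 untreated. After VEGF they were -0.23, -0.09 and 0.12, so the groups overlapped, and untreated replicate 2, which stood apart, was the highest. Mrps11 had the highest VEGF value on array A, 0.73, of which VEGF replicate 3 at 8.29 was the main part.

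The synthetase median after VEGF was 0.18 on array A, where 4 of 6 probe sets failed the filter, and -0.03 on array B, with 8 of 13 below 0. Hars2 1378050_at, Yars2 and Fars2 differed from untreated rings by 0.12, -0.23 and -0.12 after VEGF, with overlapping groups in each.

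In the direct comparison the synthetases were higher after VEGF than after Ang1, with medians at 0.67 (array A) and 0.38 (array B). Without Ang1 replicate 2 they were 0.22 and 0.41. For the group as a whole the medians were 0.07 and 0.11, and that of array B was 0.0054 without Ang1 replicate 2 and -0.003 without VEGF replicate 3. At an unadjusted p of 0.05, 5 probe sets of array B were higher after VEGF and 1 lower, beside 8.48% of all tested. On array A Fars2 was the single one, higher after VEGF by 1.20, beside 1.99%. Hars2 1378050_at was 2.28 ± 0.40 (SE) higher, 4.87-fold, at an unadjusted p of 0.000164 and an adjusted p of 0.300 (limma). Mrpl47 was 1.66 higher and Nars2 1381448_at 1.95 higher, while Sars2 and Yars2 were 0.92 and 0.68 higher. Mrps2 1382782_at was the one that was lower, by -1.02. These values share the Ang1 RNAs with the Ang1 comparison.

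Repeated probe sets limited how far single genes could be read. Of 31 genes with several probe sets in the group, 18 had the same sign in all of them after Ang1 and 20 after VEGF. Mrpl51 had 4 probe sets on array A with Ang1 differences from -0.59 to 0.81. Both probe sets of Mrpl48 were lower after Ang1, by -0.25 on array A and by -0.45 on array B. The array B levels of Mrpl48 were 8.25, 7.89 and 8.42 against 8.71, 8.72 and 8.49, with no overlap.

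Neighbouring steps of mitochondrial gene expression were read from lists of genes chosen with earlier results of these data known. Translation factors and ribosome assembly genes had a median Ang1 difference of -0.23 over 33 probe sets of array A, with 27 below 0, and of -0.12 over 37 on array B, with 21 below 0. Nuclear-encoded subunits of the respiratory chain, the complexes that receive the products of these ribosomes, had -0.17 after Ang1, with 62 of 82 below 0, and -0.15 after VEGF, with 57 of 82 below 0, on array A. On array B they had -0.42 after Ang1, with 5 of 6 below 0, and -0.16 after VEGF, with 4 of 6 below 0. Their median deviations in the Ang1 RNAs of array B were -0.08, -0.90 and 0.36, so Ang1 replicate 2 was the low one. Genes of mitochondrial DNA maintenance and transcription had -0.19 after Ang1 on array A, with 9 of 14 below 0, and -0.22 on array B, with 10 of 11. On array B their median deviations were -0.21, -0.54 and 0.25 in the Ang1 RNAs and -0.15, 0.28 and 0.24 untreated. Those of translation factors and assembly genes were 0.15, -0.49 and 0.02 after Ang1 and -0.01, 0.10 and 0.24 untreated. In both of these lists Ang1 replicate 2 was thus the lowest RNA and the groups overlapped on array B, whereas on array A they did not overlap. For the cytosolic machinery the Ang1 medians of array A were nearer to 0, at -0.07 for 46 ribosomal protein probe sets and 0.02 for 26 cytosolic synthetase probe sets. Cytosolic synthetases had -0.21 on array B, where 7 of 16 passed the filter. Their list was drawn by gene symbol, and whether its enzymes, Kars1 and Gars1 among them, also serve mitochondria was not considered. None of these lists held a probe set past the adjusted threshold.

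Promoters of the genes are given from RefSeq (rat assembly GRCr8), where 72 of the 86 genes matched by symbol. They are shown for some of the members whose values are given above, as the 120 bases before the annotated start, 5′ to 3′ on the gene's strand. Capitals mark CCGGAAG, a core bound by ETS family factors such as GABP, or AAGATGGC, a core bound by YY1, on either strand. Both factors, together with NRF1, are known to act on many nuclear genes for mitochondrial proteins.
Fars2: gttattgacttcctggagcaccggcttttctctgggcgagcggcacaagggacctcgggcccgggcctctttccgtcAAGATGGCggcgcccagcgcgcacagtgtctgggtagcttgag
Mrpl33: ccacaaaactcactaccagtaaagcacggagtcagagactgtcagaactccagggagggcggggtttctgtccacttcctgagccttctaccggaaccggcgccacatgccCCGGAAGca
Mrpl48: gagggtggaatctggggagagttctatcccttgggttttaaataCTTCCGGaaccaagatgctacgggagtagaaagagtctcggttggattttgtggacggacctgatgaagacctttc
Mrpl47: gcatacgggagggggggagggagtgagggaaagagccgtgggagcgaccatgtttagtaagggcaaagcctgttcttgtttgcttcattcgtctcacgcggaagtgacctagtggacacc
These lie on the minus strand at chr17:28951552-28951671, chr6:30553988-30554107, chr1:164351377-164351496 and chr2:117447362-117447481, in that order.

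In the 300-base window from 250 before to 50 after the start, CCGGAAG was found on either strand in 25 of 72 members (34.7%), against 10.7% of 21851 protein-coding genes and 8.75% of all 33469 windows. AAGATGGC was found in 18 members (25%), against 3.67% and 3.17%. The NRF1 motif, a palindrome-like sequence searched with any base allowed in the middle, was found in 11 (15.3%), against 5.67% and 4.25%. These are matches of letters, not measured binding. The 4 printed promoters do not share one of the searched strings: Fars2 carries AAGATGGC, Mrpl33 and Mrpl48 carry CCGGAAG within these bases, and Mrpl47 carries neither exact string. Other forms of an ETS or YY1 site were not searched, so lacking these strings does not mean lacking such a site. Of the synthetases not printed, Hars2, Iars2 and Cars2 also carry CCGGAAG within the 120 bases before their starts, and Aars2 and Ears2 carry neither exact string.

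Many of the genes start back to back with another gene. A protein-coding neighbour on the opposite strand with its start within 1000 bases was found for 21 of the 72 members (29.2%), against 6.28% of all protein-coding genes. Mrpl47 starts 244 bases from Ndufb5, which encodes a subunit of respiratory complex I, and Hars2 starts 144 bases from Hars1, the cytosolic histidine enzyme. Mrpl46 and Mrps11, members of different subunits, start 234 bases apart. The Ang1 differences of the partners of Hars2 and Mrpl47 were nearer to 0: Ndufb5 had -0.36 on array A, and Hars1 had 0.31 on array A and -0.19 on array B, both in probe sets below the filter that give no firm reading. For Mrpl46 and Mrps11 the Ang1 differences were -0.13 and 0.05 and the VEGF differences -0.02 and 0.73. No test of these differences between neighbours was made.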

How the data were processed

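Per the labels' protocols, total RNA of pooled aortic rings was labelled and hybridised to 2 types of Affymetrix array. The deposited tables hold the authors' linear signal intensity per probe set from MAS5, per the submitters' processing notes; its version and settings are not given in the sources used here. Values of 57 control probe sets per array type were dropped, 16 was added, log2 was taken and arrays of one type were quantile normalised. Probe sets below the 40th percentile of mean level were left out of tests. A linear model with 3 groups (limma 3.58.1 in R 4.3.3, moderated with an intensity trend) was fitted to 9 arrays of a type, without a replicate block, with Benjamini-Hochberg adjustment over the type at 0.05. Medians and counts below 0 use all probe sets of the group, kept or not. Symbols came from the platform annotation, updated through gene IDs to RefSeq, with 12789 probe sets of array A and 7570 of array B having 1 symbol. The number of arrays limits the precision. p-values measure the spread between these RNAs.

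The members, gene lists and the RNAs that stood apart were chosen with earlier results of these data known. Named were all synthetases, the 4 highest and 4 lowest kept probe sets per comparison and array type, the 5 brightest, genes with several probe sets and, of the other lists, at most 2 genes in each direction per comparison. Markers are named as a tissue check and neighbours for their position, outside that rule. The code was tested on simulated data. Deviations from group means correlated between same-numbered RNAs of untreated and treated rings, at 0.14 to 0.49 over 6 pairs of array A and at 0.14 to 0.29 over 6 of array B, so the numbers were taken to pair these samples. This pairing comes from the data; the labels tie no number to an animal. Between Ang1 and VEGF RNAs the correlation was -0.15 to 0.23 on array A, -0.21 to 0.23 on array B, and no pairing was taken. The main fit did not use this uncertain pairing of untreated with treated RNAs, so its standard errors and p-values leave it out. On array A, 1.65% of all tested were at an unadjusted p of 0.05 (limma) for VEGF and 3.17% for Ang1. With replicate number as a block these shares were 3.09% and 4.36%. On array B they went from 0.72% to 1.07% and from 10.5% to 10.7%. Alternatives were other scalings, pseudocounts, filters, samples and a replicate block.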

Additional observations from a re-analysis of the deposited data

How the results depend on the processing

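With 3 RNAs a group and 2 RNAs that stood apart, differences near the typical standard error cannot be told from the spread. Scaling mattered most. With values as deposited, 117 probe sets of array B were called in Ang1 against untreated, among them Hars2, Mrpl47 and Nars2 (smallest adjusted p of the group 0.0134, limma), and 25 in VEGF against Ang1, among them Hars2. On those arrays Ang1 replicate 3 was deposited at a lower overall level. The group's median was then -0.48 and 0.37 in these 2 comparisons. At an unadjusted p of 0.05 after Ang1 there were 8 of 29 tested members on array B, beside 15.6% of all tested. On array A the median was -0.17 after Ang1, with 6 of 76 members at that p, beside 4.02% of all tested. The median of all probe sets shifted to 0.20 (A) and -0.11 (B) after Ang1, and to -0.11 (A) and 0.14 (B) in VEGF against Ang1. With arrays centred on their median, the group's median on array A was -0.48 (Ang1), -0.17 (VEGF) and 0.18 (VEGF against Ang1). On array B it was -0.38 (Ang1) and 0.24 (VEGF against Ang1). Members at that p after Ang1 were 8 of 76 on array A, beside 5.39% of all tested, and 10 of 29 on array B, beside 15%. The median of all was then -0.11 after Ang1 on array A.

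Without both RNAs that stood apart, the Ang1 median on array A was -0.14. Member counts at that p follow, each with the share of all tested probe sets in brackets. Without those RNAs the count was 2 for VEGF against Ang1 on array A (3.29%). On array B it was 2 for Ang1 (5.62%) and 2 for VEGF against Ang1 (5.87%). For VEGF on array A the count was 2 with a pseudocount of 64 (1.72%) and 2 with no filter (2.27%). It was 0 with a filter at the 60th percentile (1.92%) and 3 with only the 2 groups compared (2.47%). For VEGF against Ang1 on array A it was 2 with no filter (3.36%) and 0 with the stricter filter (1.54%). With only the 2 groups compared it was 0 on array A (1.37%) and 3 on array B (5.62%). For Ang1 on array A the stricter filter gave 0 (2.77%).

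The replicate block gave 2 for VEGF against Ang1 on array A, beside 4.29% of all tested, and 4 for Ang1, beside 4.36%. It left the other member counts at that p unchanged and called 0 probe sets in every comparison. The medians were the same by construction.

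Leaving out 1 RNA at a time, the Ang1 median lay between -0.23 and -0.15 on array A, between -0.29 and -0.087 on array B, and the VEGF against Ang1 median on array B from -0.003 to 0.14. The VEGF median lay between -0.12 and -0.023 (A) and between -0.12 and -0.045 (B), and for VEGF against Ang1 on array A between 0.048 and 0.13. Member counts at that p on array A ran from 1 to 5 for Ang1, beside 1.99% to 6.2% of all tested. They ran from 0 to 4 for VEGF, beside 0.903% to 3.82%, and from 0 to 4 for VEGF against Ang1, beside 1.25% to 6.04%. On array B they ran from 0 to 1 for VEGF, beside 0.458% to 1.67%. For VEGF against Ang1 they ran from 2 to 6 there, beside 3.93% to 17.2%. None of the 9 fits called a probe set. Of 4752 values of the 88 named probe sets under alternatives, 81 moved by 1 SD or more and 347 changed sign. The cause of these changes was not tested.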
